A study of Mus musculus with 16 samples.

Results

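The replication-dependent histone genes, which are named by their position in gene clusters, were followed in bulk RNA sequencing of mouse embryonic fibroblasts (MEFs) on their way to induced pluripotent stem cells. A gene was included when its symbol began with Hist1h, Hist2h, Hist3h or Hist4h and its log2 CPM (the read count scaled to library size, on a log2 scale) averaged at least 0 over the 16 libraries. Of 57 such symbols 55 qualified, among 14028 genes that passed the same filter. *Hist1h1t* (mean −0.95) and *Hist1h2al* (mean −1.68) fell below it and were not examined further. By histone type the 55 genes divide into 5 for H1, 13 for H2A, 15 for H2B, 10 for H3 and 12 for H4. The cluster of each gene is the number after Hist in its symbol, and 46 genes belong to cluster 1, 5 to cluster 2, 3 to cluster 3 and 1, *Hist4h4*, to cluster 4. Gene coordinates are those of GENCODE vM21 on GRCm38, the build that mm10 names.

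All cells were wild-type BL6 MEFs carrying the tet-STEMCCA lentivirus, which expresses Oct4, Sox2, Klf4 and c-Myc under doxycycline, together with the rtTA activator. They had been reverse transfected with a pool of siRNAs at 40 nM, either non-targeting (nt control) or against *Wdr5* (siWdr5), *Brca1* (siBrca1) or *Bard1* (siBard1), and were then reprogrammed with doxycycline in medium with chiron, Alk5 inhibitor, ascorbic acid and LIF. RNA was collected at day 3 and day 6, with 2 libraries in each of the 8 groups. The authors describe the 2 as independent replicates, from independent experiments, and p-values measure the spread between such libraries. RNA was depleted of ribosomal RNA and not selected for poly(A) tails, which matters here because most histone mRNAs have none.

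Core histones H2A, H2B, H3 and H4 form the protein spool of the nucleosome, and the linker histone H1 binds the DNA where it enters and leaves. Cells make most of this protein in S phase, when newly copied DNA has to be packaged. The clustered genes lack introns in the main, their transcripts end in a short stem-loop instead of a poly(A) tail, and stem-loop binding protein (*Slbp*) and the U7 machinery cut the transcript behind that stem-loop. NPAT switches the clusters on at the start of S phase, and the mRNAs are degraded when DNA synthesis stops. Histone variants outside the clusters, such as H2A.Z and H3.3, are made from polyadenylated mRNAs throughout the cell cycle.

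The 3′ stem-loop is shown first because it sets these transcripts apart from other mRNAs. Transcripts of the 55 genes in GENCODE vM21 (GRCm38) were searched on the sense strand for the 16 letters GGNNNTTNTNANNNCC with a stem of 6 paired bases, and 39 genes held a match. The commonest form, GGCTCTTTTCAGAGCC, was found in 21 genes and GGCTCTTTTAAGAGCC in 5. Below, the stem-loop is in capitals in 28 bases of the mRNA strand, for highly expressed genes of each type and for 2 further H4 genes described later.
Hist1h1c: aaGGCTCTTTTCAGAGCCaccactccca
Hist1h2ab: aaGGCTCTTTTCAGAGCCacccacatct
Hist1h2bb: aaGGCTCTTTTAAGAGCCacccacactt
Hist1h3e: acGGCTCTTTTAAGAGCCacctccatta
Hist1h4d: aaGGCCCTTTTCAGGGCCactaccttct
Hist1h4h: aaGGCCCTTTTCAGGGCCgcccacattt
Hist1h4a: aaGGCCCTTCTCAGGGCCgcccacattc
Hist2h4: acGGCCCTTTTTAGGGCCaaccacagtc

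In these H4 genes the stem opens with GGCCC, and in the H1, H2A, H2B and H3 genes with GGCTC. Of the 16 genes without a match, 12 have an annotated transcript shorter than 600 bases, so that their annotation may stop before the stem-loop. In 17 genes the annotated transcript runs more than 300 bases beyond the stem-loop, and in 11 the letters AATAAA, a poly(A) signal, lie in its last 60 bases.

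Promoters were read from RefSeq for GRCm38.p6, as 250 bases before and 50 bases after the start site, for the 49 genes that matched an entry, and the letters were searched on both strands. TATAAA was found in 31 of them (63.3%), against 13.6% of all 32851 promoters. CCAAT, the letters bound by NF-Y, was found in 41 (83.7%), against 37.4% of all promoters. It was present in each of the 5 H1, 13 H2A, 12 H2B and 8 H3 promoters and in 3 of 11 H4 promoters. The octamer ATTTGCAT, which POU factors such as Oct1 and Oct4 can bind, was found in 10 (20.4%), against 1.74% of all promoters, and these were 6 H2A and 4 H2B genes. AAACACA, known as the H1 box, was found in 6, of which 4 were H1 genes, against 7.18% of all promoters. Windows of close neighbours read in opposite directions overlap, so a single site could count for both genes. The octamer of *Hist1h2ae* and *Hist1h2bg* is such a site. A counted site need not face the gene it was counted for.

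Stretches of 3 promoters are given with these letters in capitals, read on the plus strand of chromosome 13, to show an H1, an H4 and a shared H2A and H2B promoter. They are the 130 bases before the start of *Hist1h1c* at chr13:23738677-23738806, the 130 bases before the start of *Hist1h4d* at chr13:23581438-23581567, and the 179 bases between the starts of *Hist1h2ae*, which is read to the left, and *Hist1h2bg*, which is read to the right, at chr13:23571221-23571399.
Hist1h1c: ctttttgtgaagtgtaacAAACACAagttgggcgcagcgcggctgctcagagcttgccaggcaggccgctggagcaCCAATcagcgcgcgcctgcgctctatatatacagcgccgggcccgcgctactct
Hist1h4d: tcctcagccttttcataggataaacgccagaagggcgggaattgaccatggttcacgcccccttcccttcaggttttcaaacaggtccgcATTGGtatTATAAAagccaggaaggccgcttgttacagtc
Hist1h2ae and Hist1h2bg: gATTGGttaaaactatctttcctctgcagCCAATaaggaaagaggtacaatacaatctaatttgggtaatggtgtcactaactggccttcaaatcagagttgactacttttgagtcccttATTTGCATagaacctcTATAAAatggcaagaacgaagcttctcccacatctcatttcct

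ATTGG is CCAAT read on the other strand. Among the 49 genes with a promoter entry, such head-to-head promoters joined 7 pairs of an H2A and an H2B gene, with 164 to 249 bases between the starts. By their GENCODE starts, *Hist1h2ac* and *Hist1h2bc*, *Hist2h2ac* and *Hist2h2be*, and *Hist3h2a* and *Hist3h2bb-ps* also lie head to head. These were not counted, as *Hist1h2bc*, *Hist2h2be* and *Hist3h2bb-ps* had no promoter entry.

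Libraries held 11169738 to 26832534 reads. *Wdr5* in siWdr5 stood at 40.4% of the nt control at day 3, *Brca1* in siBrca1 at 33.6% and *Bard1* in siBard1 at 65.1%, and at day 6 the same transcripts stood at 82.9%, 100.9% and 107.6%. Each of these transcripts also stood below both nt libraries in every library of the other knockdowns at day 3. *Bard1* stood at 30.5 and 29.1 CPM in the nt control and 18.01 and 20.8 CPM in siBard1, above its 13.9 and 15.3 CPM in siWdr5 and 14.4 and 9.07 CPM in siBrca1. *Brca1* stood at 82.4 and 77.98 CPM in the nt control, 37.5 and 19.4 in siBrca1, 40.5 and 48.5 in siWdr5 and 57.8 and 66.1 in siBard1. *Wdr5* stood at 131.7 and 130.5 CPM in the nt control, 50.6 and 55.3 in siWdr5, 74.3 and 68.9 in siBrca1 and 96.6 and 91.95 in siBard1. Markers of the starting cells moved with the knockdowns. The 6 fibroblast markers together stood at 7624 and 8623 CPM in the nt control at day 3 and at 9530 to 14031 CPM in the knockdowns. Of the 6, 5 passed the test as higher in siWdr5, 5 in siBrca1 and none in siBard1. *Des* and *Acta1*, the muscle markers in the table, summed to 40.5 and 52.2 CPM in the nt control and to 113 to 277 CPM in the knockdowns, and both rose in all 3. The 4 epithelial markers summed to 43.1 and 64.4 CPM in the nt control at day 3 and to 19.9 to 43.7 CPM in the knockdowns, and reached 322 to 680 CPM at day 6. The 6 pluripotency markers summed to at most 2.47 CPM at day 3 and to 32.4 to 453 CPM at day 6. At day 3 none of the 4 pluripotency genes tested passed. Of the 4 epithelial genes 3 fell in siWdr5, in siBrca1 2 fell and 1 rose, and in siBard1 none passed. Over all libraries 4 macrophage markers summed to at most 14.97 CPM, of which 1 rose in siWdr5 and 2 in siBrca1, and 4 endothelial markers to at most 59.6 CPM, of which none passed at day 3. In bulk RNA, fewer cells that make a transcript and less transcript per cell cannot be told apart, and the part of this cell mixture in the histone results was not tested.

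The histone genes took 0.161% to 1.00% of the reads of a library. Their mean log2 CPM ranged from 0.57 (*Hist2h3c2*) to 8.96 (*Hist1h1c*), with a median of 5.87. Of the summed CPM of all 55 genes, H4 genes held 30.2% to 36.8% in the 16 libraries, H1 genes 25.7% to 34.2%, H2B genes 17.3% to 20.7%, H3 genes 11.96% to 15.9% and H2A genes 4.03% to 5.52%. These shares follow read counts and are not corrected for transcript length. Because the coding sequences are near copies of each other, a median of 50.2% of the 43-base stretches (the read length) of these genes also occur in transcripts of other genes, from 2.63% in the median H1 gene to 65.4% in the median H2A gene. Values of single H2A, H2B, H3 and H4 genes can therefore hold reads of a relative, and those of H1 genes less, with at most 33.0% shared (*Hist1h1e*). Exons of 14 of the genes also overlap a gene on the other strand, and the sources used here do not state whether counting used the strand. Exons of 4 overlap a gene on the same strand. These are *Hist1h1e* (25.7% of its exonic bases, with *Hist1h2be* and *Gm11398*), *Hist1h2be* (11.2%), *Hist1h2ac* (4.35%) and *Hist3h2a* (33.0%).

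At day 3 the 3 knockdowns had less histone mRNA than the nt control. The summed level of all 55 genes was 7272 and 6195 CPM in the nt control, 3076 and 2827 CPM in siWdr5, 3563 and 1705 CPM in siBrca1, and 4650 and 3302 CPM in siBard1. Every knockdown library lay below both nt libraries, and siBrca1 had the widest gap between its libraries. At day 6 the sums were 9376 and 6726 CPM in the nt control, 7183 and 4195 CPM in siWdr5, 9713 and 4397 CPM in siBrca1, and 8601 and 5989 CPM in siBard1, and each knockdown overlapped the nt control.

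**Figure D1:**
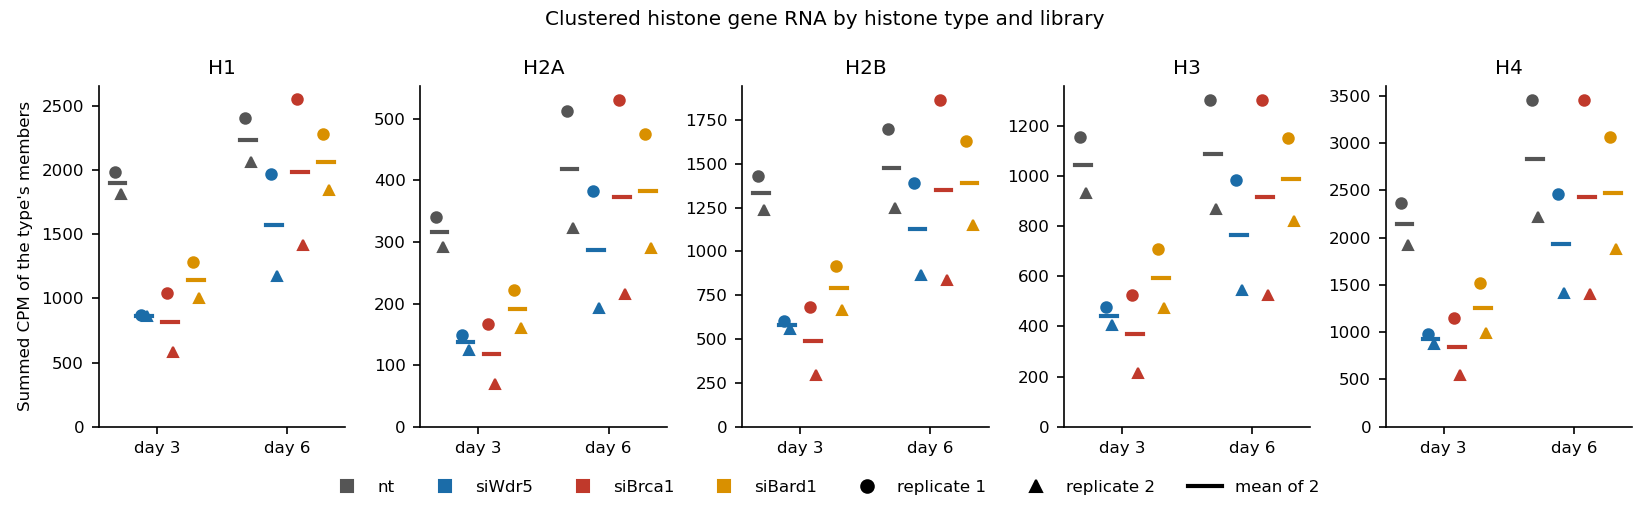
Summed CPM of the clustered histone genes of each type (H1, H2A, H2B, H3, H4) in the 16 libraries, on the vertical axis, by siRNA group and day, with a point for each library. At day 3 every knockdown library lies below both nt control libraries, from 7272 and 6195 CPM over all types in the nt control to 1705 CPM in the lower siBrca1 library. At day 6 the knockdowns overlap with the nt control except in H1, where siWdr5 (1969 and 1177 CPM) lies below the nt control (2407 and 2065 CPM).

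Within every group replicate 1 had more histone mRNA than replicate 2. It was the higher library for 45 to 55 of the 55 genes in the 8 groups, while over all genes tested replicate 1 was the higher for 32.9% to 62.5%. The summed CPM of replicate 1 was 1.17 times that of replicate 2 in the nt control at day 3, 1.09 times in siWdr5, 2.09 times in siBrca1 and 1.41 times in siBard1. At day 6 the same ratios were 1.39, 1.71, 2.21 and 1.44. Counts from fits with the replicate number as a block were higher in most comparisons and are given with the other alternatives in the closing section.

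Knockdown of *Wdr5*, which encodes a core subunit of histone H3 lysine 4 methyltransferase complexes, lowered 50 of the 55 genes at day 3 and raised none (limma, adjusted p below 0.05), where 16.8% of all genes tested were lower. The median log2-fold change of the 55 was −1.19, against −0.04 over all genes. With a fall of more than 1 on the log2 scale required as well, 45 genes passed, where 2.95% of all genes did. Both siWdr5 libraries lay below both nt libraries in 53 genes, as in 39.6% of all genes. The falls covered all 5 H1 genes, 10 of 13 H2A, 14 of 15 H2B, 9 of 10 H3 and all 12 H4 genes. The largest falls were those of *Hist3h2bb-ps* (−1.90), *Hist1h2ag* (−1.58) and *Hist1h3b* (−1.45). Fewer genes passed when a library was left out: 27 without nt control replicate 1, 46 without nt control replicate 2, 28 without siWdr5 replicate 1 and 15 without siWdr5 replicate 2. The median change kept its sign in each case.

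Knockdown of *Brca1*, a DNA repair and ubiquitin ligase gene, lowered 51 of the 55 genes at day 3 and raised none, where 21.8% of all genes were lower. Their median log2-fold change was −1.58, against 0.00 over all genes. A fall of more than 1 on the log2 scale was seen in 50 of them, where 6.27% of all genes met both conditions. Both siBrca1 libraries lay below both nt libraries in 52 genes, as in 38.3% of all genes. All 5 H1 genes, 11 of 13 H2A, 14 of 15 H2B, 9 of 10 H3 and all 12 H4 genes fell. *Hist3h2bb-ps* (−2.51), *Hist1h2an* (−1.93) and *Hist1h2af* (−1.88) fell most. The count was 50 to 52 when any of the 4 libraries was left out. The size of the change differed between the siBrca1 libraries, with a median log2 difference from the nt mean of −0.94 in replicate 1 and −2.16 in replicate 2.

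Knockdown of *Bard1*, the partner of *Brca1*, lowered 11 of the 55 genes and raised none, where 5.87% of all genes were lower. None fell by more than 1 on the log2 scale, as 0.656% of all genes did. The median log2-fold change was −0.79, against −0.02 over all genes, and both siBard1 libraries lay below both nt libraries in 51 genes, as in 33.7% of all genes. At an unadjusted p below 0.05, 44 genes were lower, and limma-voom on the recovered reads called 25. The shares of all genes at these settings are not given here, and 5.87% belongs to the adjusted limma test. The 11 genes were *Hist1h1c*, *Hist1h1d*, *Hist1h1e*, *Hist1h2bc*, *Hist1h2bg*, *Hist1h2bn*, *Hist1h3e*, *Hist1h4a*, *Hist1h4d*, *Hist1h4f* and *Hist2h4*, and no H2A gene was among them. The count rested on every library: it was 0 without nt control replicate 1, 1 without nt control replicate 2, 2 without siBard1 replicate 1 and 0 without siBard1 replicate 2, where the median was −0.49.

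The 3 comparisons share the nt control libraries, so their lists are not independent. Of the genes that fell in siWdr5 (50) and in siBrca1 (51), 49 fell in both, all 11 of siBard1 fell in both others, and 3 fell in none. Those 3 were *Hist2h2ab*, *Hist2h3c2* and *Hist3h2a*, all at low levels.

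**Figure D2:**
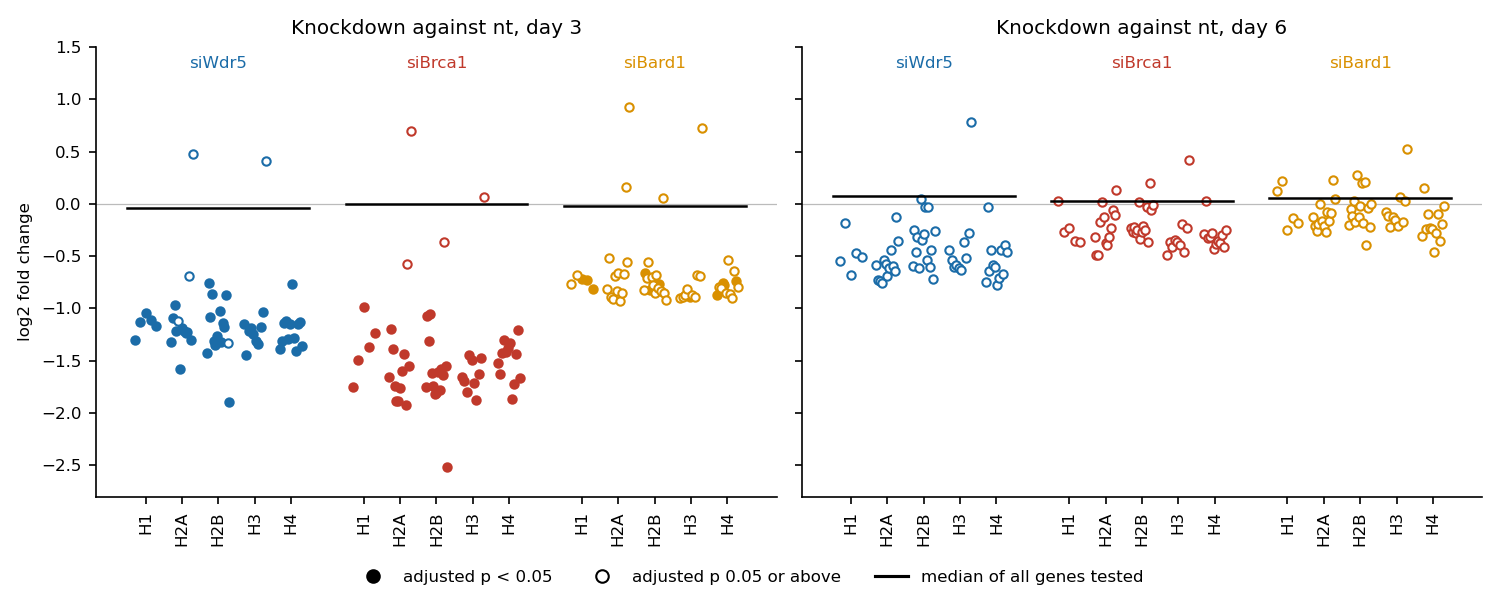
Log2-fold change against the nt control of the same day for each of the 55 clustered histone genes, on the vertical axis, by histone type, for siWdr5, siBrca1 and siBard1 at day 3 and at day 6. At day 3 the medians over the 55 genes are −1.19, −1.58 and −0.79, and at day 6 they are −0.53, −0.28 and −0.13.

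Linker histone H1 genes fell together, and their median SE at day 3, 0.21 on the log2 scale, was the smallest of the 5 types. In the nt control at day 3 their sum was 1896 ± 120 CPM (mean ± SD, n = 2), against 866 ± 9.31 in siWdr5, 813 ± 326 in siBrca1 and 1144 ± 200 in siBard1. *Hist1h1c* (histone H1.2; ENSMUSG00000036181, chr13:23738808-23740367, 1 exon, stem-loop shown above), the most expressed member, stood at 514 and 486 CPM in the nt control, 242 and 243 in siWdr5, 293 and 219 in siBrca1, and 356 and 260 in siBard1. All 6 knockdown libraries lay below both nt libraries. The log2-fold changes were −1.04 (SE 0.15, limma, adjusted p = 0.000216), −0.98 (SE 0.15, adjusted p = 0.000174) and −0.72 (SE 0.15, adjusted p = 0.00825). *Hist1h1d* (H1.3; chr13:23553262-23560686) stood at 439 and 413 CPM in the nt control, 204 and 191 in siWdr5, 225 and 121 in siBrca1, and 279 and 238 in siBard1. Again no knockdown library reached the nt control, with log2-fold changes of −1.11, −1.37 and −0.72 that all passed (limma, adjusted p = 0.000961, 0.000116 and 0.0285). *Hist1h1a*, *Hist1h1b* and *Hist1h1e*, which encode H1.1, H1.5 and H1.4, fell in siWdr5 (−1.30, −1.13 and −1.16) and in siBrca1 (−1.75, −1.49 and −1.23). In siBard1 *Hist1h1e* fell (−0.81, limma, adjusted p = 0.0237), and *Hist1h1a* (−0.76, adjusted p = 0.0794) and *Hist1h1b* (−0.68, adjusted p = 0.0967) missed the threshold, with both siBard1 libraries of each below both nt libraries.

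H2A genes, whose products pair with H2B at the outer face of the nucleosome core, had the lowest summed level of the 5 types. Their sum was 317 ± 34.9 CPM (SD, n = 2) in the nt control at day 3, 137 ± 16.9 in siWdr5, 118 ± 69.4 in siBrca1 and 191 ± 43.6 in siBard1. *Hist1h2ab* (chr13:23751126-23751598), the most expressed, stood at 74.1 and 65.0 CPM in the nt control, 30.7 and 25.0 in siWdr5, 36.1 and 13.5 in siBrca1, and 46.2 and 33.7 in siBard1. Its fall passed in siWdr5 (−1.32, SE 0.31, limma, adjusted p = 0.00515) and siBrca1 (−1.65, SE 0.31, adjusted p = 0.000684), but not in siBard1 (−0.81, adjusted p = 0.0914), although the libraries did not overlap. *Hist1h2ak* stood at 40.2 and 41.3 CPM in the nt control, 19.2 and 15.5 in siWdr5, 23.4 and 9.70 in siBrca1, and 28.3 and 17.96 in siBard1, with the same pattern of calls. *Hist1h2ag*, which was among the 3 largest falls in siWdr5, went from 9.50 and 6.52 CPM to 3.50 and 1.99 CPM there (adjusted p = 0.0127). *Hist1h2an* went from 17.2 and 15.8 CPM to 7.44 and 2.53 CPM in siBrca1 (adjusted p = 0.00062), and *Hist1h2af* from 21.5 and 19.8 CPM to 12.01 and 2.60 CPM (adjusted p = 0.00342). *Hist1h2af* missed the threshold in siWdr5 (−1.12, limma, adjusted p = 0.0661), and 94.1% of its 43-base stretches also occur elsewhere.

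H2B genes summed to 1332 ± 136 CPM (SD, n = 2) in the nt control at day 3, 581 ± 29.2 in siWdr5, 489 ± 275 in siBrca1 and 793 ± 177 in siBard1. *Hist1h2bb* (chr13:23746734-23747241) stood at 240 and 199 CPM in the nt control, 82.1 and 81.2 in siWdr5, 106 and 39.7 in siBrca1, and 149 and 102 in siBard1. Levels in all knockdown libraries were below both nt libraries, and the change passed in siWdr5 (−1.42, SE 0.31, limma, adjusted p = 0.00318) and siBrca1 (−1.75, SE 0.31, adjusted p = 0.000427) but not in siBard1 (−0.83, adjusted p = 0.0855). *Hist1h2bg* (chr13:23571396-23572013), the partner of *Hist1h2ae* at the shared promoter shown above, stood at 197 and 169 CPM in the nt control, 78.9 and 68.4 in siWdr5, 87.1 and 40.8 in siBrca1, and 123 and 86.6 in siBard1. It was the H2B gene with the largest fall among the 3 that passed in siBard1 (−0.82, SE 0.25, limma, adjusted p = 0.0464).

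The head-to-head pairs let an H2A and an H2B gene with a common promoter be compared. Within the 7 pairs the log2-fold changes of the 2 genes differed by a median of 0.11 in siWdr5, 0.13 in siBrca1 and 0.17 in siBard1 at day 3, and by at most 0.34. *Hist1h2ae* and *Hist1h2bg* changed by −1.22 and −1.31 in siWdr5 and by −1.74 and −1.61 in siBrca1. In the nt control from day 3 to day 6 the differences within the 7 pairs had a median of 0.54. They reached 1.13, for *Hist1h2bl* (−0.75) and *Hist1h2ai* (0.38), and neither of these 2 changes passed the test. At day 3 the head-to-head pairs that were not counted did not all move alike. *Hist1h2ac* and *Hist1h2bc* both fell in siWdr5 and siBrca1. *Hist2h2ac* fell in both knockdowns, but *Hist2h2be* passed in siWdr5 only. *Hist3h2bb-ps* fell in both, while *Hist3h2a*, also at a low level, stood higher in every knockdown library.

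H3 genes, which code for the histone that carries the lysine 4 methylated by WDR5 complexes, summed to 1043 ± 159 CPM (SD, n = 2) in the nt control at day 3, 441 ± 48.9 in siWdr5, 369 ± 218 in siBrca1 and 591 ± 165 in siBard1. *Hist1h3e* (chr13:23561534-23562369) stood at 216 and 164 CPM in the nt control, 87.5 and 72.2 in siWdr5, 97.7 and 46.0 in siBrca1, and 124 and 83.5 in siBard1. No knockdown library overlapped the nt control, and the fall passed in siWdr5 (−1.24, SE 0.27, limma, adjusted p = 0.00312), siBrca1 (−1.49, adjusted p = 0.000506) and siBard1 (−0.89, adjusted p = 0.0417), where it was the largest of the 11. *Hist1h3f* stood at 188 and 141 CPM in the nt control, 73.8 and 58.5 in siWdr5, 79.1 and 31.4 in siBrca1, and 107 and 74.3 in siBard1. *Hist1h3b* stood at 132 and 108 CPM in the nt control and at 48.8 and 39.2 CPM in siWdr5 (−1.45, SE 0.33, limma, adjusted p = 0.00418).

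H4 genes had the largest sum of the core histones, 2145 ± 311 CPM (SD, n = 2) in the nt control at day 3, 927 ± 71.7 in siWdr5, 846 ± 425 in siBrca1 and 1256 ± 368 in siBard1. Each of the 12 fell in siWdr5 and all 12 in siBrca1. *Hist1h4d* (chr13:23581598-23582735), the most expressed, stood at 556 and 478 CPM in the nt control, 255 and 222 in siWdr5, 290 and 152 in siBrca1, and 363 and 257 in siBard1. Its log2-fold changes were −1.12, −1.30 and −0.76 (SE 0.23 each), and all passed (limma, adjusted p = 0.00232, 0.000449 and 0.0423). *Hist1h4h* stood at 364 and 272 CPM in the nt control, 148 and 136 in siWdr5, 181 and 80.7 in siBrca1, and 232 and 132 in siBard1, and passed in siWdr5 and siBrca1. *Hist1h4a*, with the single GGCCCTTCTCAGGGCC stem-loop, stood at 240 and 201 CPM in the nt control, 87.2 and 80.4 in siWdr5, 105 and 55.4 in siBrca1, and 143 and 101 in siBard1. It fell in all 3 (−1.39, −1.52 and −0.87, SE 0.23 each, limma, adjusted p = 0.000503, 0.000139 and 0.0229).

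Cluster 1 on chromosome 13 (chr13:21715763-23764406) held 46 of the genes, of which 45 fell in siWdr5, 46 in siBrca1 and 10 in siBard1. In cluster 2 on chromosome 3 (chr3:96219865-96263311), 3 of 5 genes fell in siWdr5, 2 in siBrca1 and 1 in siBard1. *Hist2h4* fell in all 3 knockdowns (−1.13, −1.21 and −0.73), and *Hist2h2ac* in siWdr5 (−1.31) and siBrca1 (−1.55). *Hist2h2be*, at 2.71 and 2.36 CPM in the nt control, fell in siWdr5 to 1.26 and 1.53 CPM (−0.87, limma, adjusted p = 0.0264) and stood at 2.20 and 1.75 CPM in siBrca1. *Hist2h3c2*, at 1.13 and 1.11 CPM in the nt control, stood at 1.44 and 1.53 in siWdr5, 1.39 and 0.980 in siBrca1 and 1.89 and 1.80 in siBard1, and passed in none.

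In cluster 3 on chromosome 11 (chr11:58948920-58956830) *Hist3h2bb-ps*, an annotated processed pseudogene, stood at 6.07 and 4.41 CPM in the nt control, 1.32 and 1.46 in siWdr5, 1.69 and 0.488 in siBrca1, and 3.92 and 1.90 in siBard1. It had the largest fall of all 55 genes in siWdr5 (−1.90, SE 0.48, limma, adjusted p = 0.00794) and in siBrca1 (−2.51, SE 0.48, adjusted p = 0.000771), on 5 to 112 reads in a library. Its neighbour *Hist3h2a* stood higher in every knockdown library, with 1.39 and 1.33 CPM in the nt control, 1.75 and 2.06 in siWdr5, 1.69 and 2.88 in siBrca1, and 2.31 and 2.89 in siBard1. No difference of *Hist3h2a* passed (0.48, 0.69 and 0.92, limma, adjusted p = 0.25, 0.0835 and 0.0624). The exons of *Hist3h2a* overlap *Trim17* on the same strand over 33.0% of their length. *Hist3h2ba*, on 2 to 61 reads, fell in siBrca1 (−1.55, limma, adjusted p = 0.0377) and missed the threshold in siWdr5 (−1.33, adjusted p = 0.0837). *Hist4h4*, the sole gene of cluster 4 (chr6:136801553-136804415), fell from 86.5 and 60.8 CPM to 29.8 and 26.9 in siWdr5 (−1.36, adjusted p = 0.00781) and to 38.6 and 13.6 in siBrca1 (−1.66, adjusted p = 0.00132).

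**Figure D3:**
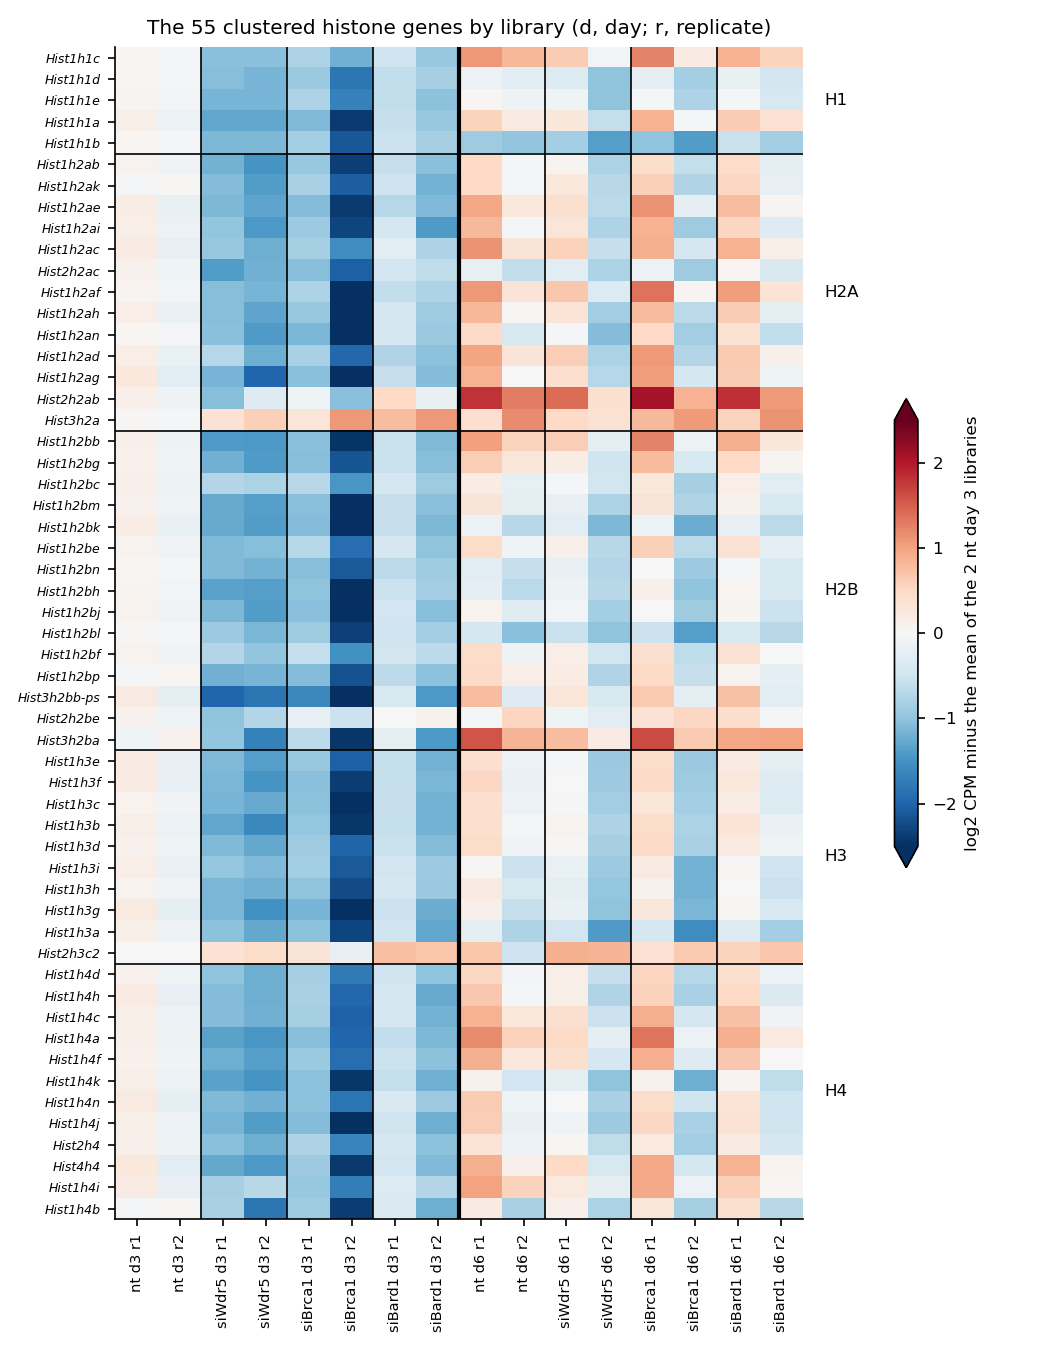
Level of each of the 55 clustered histone genes (rows, by histone type) in each of the 16 libraries (columns), as log2 CPM minus the nt control mean of day 3, with the colour scale limited to ±2.5. Nearly all rows are lower in the 6 knockdown libraries of day 3, most of all in siBrca1 replicate 2 (median −2.16), while *Hist3h2a* and *Hist2h3c2* are not.

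Counts were also split by features that the selection did not use. In siBrca1, 37 of 39 genes with a stem-loop match and 14 of 16 without fell, and in siWdr5 36 and 14. Of the 26 genes with under 50% of their 43-base stretches shared, 24 fell in siWdr5 and 24 in siBrca1, and of the other 29 genes 26 and 27. In siBard1 8 of the 26 and 3 of the 29 fell.

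The knockdowns were also compared with each other at day 3, where each of the 3 targets stood below the nt control in all knockdowns. Between siBrca1 and siBard1, 18 genes were lower in siBrca1 and none higher (limma, adjusted p below 0.05; median difference −0.80), where 8.33% of all genes were lower. They were 3 H1, 3 H2A, 9 H2B, 1 H3 and 2 H4 genes. This count was 52 without siBrca1 replicate 1 and 0 without siBrca1 replicate 2, siBard1 replicate 1 or siBard1 replicate 2, and the median was −1.40 without siBrca1 replicate 1 and −0.17 without siBrca1 replicate 2. Between siBrca1 and siWdr5 no gene passed by limma at an adjusted p below 0.05, where 5.47% of all genes were lower. None passed by limma-voom, and 1 was lower at an unadjusted p below 0.05. The median difference was −0.32. Without siBrca1 replicate 1, 48 genes were lower in siBrca1, and without siBrca1 replicate 2 none passed and the median was 0.27. Between siWdr5 and siBard1 no gene passed by limma, where 3.78% of all genes were lower. At an unadjusted p below 0.05, 8 histone genes were lower in siWdr5, and 1 by limma-voom. For these comparisons the shares of all genes at an unadjusted p or by limma-voom are not given here. The median difference was −0.44, and it was −0.20 without siBard1 replicate 1 and −0.73 without siBard1 replicate 2.

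At day 6 no clustered histone gene passed against the nt control in any knockdown (limma). This call depended on the fit in siWdr5: with the replicate number as a block, 28 genes were lower there and still none passed in siBrca1 or siBard1. The share of all genes that passed with the block is not given here, so the 28 have no background. The sources do not say that a number marks a shared batch. Within each number the summed level was lower in siWdr5 than in the nt control, at 7183 against 9376 CPM and 4195 against 6726 CPM. This was not particular to siWdr5. In siBard1 the sums of 8601 and 5989 CPM were also lower within each number. In siBrca1, at 9713 and 4397 CPM, only replicate 2 was lower. In siWdr5 21.8% of all genes tested passed in either direction, in siBrca1 0.0% and in siBard1 0.0784%. The medians over the 55 genes were −0.53, −0.28 and −0.13, and in siWdr5 the median went from −0.96 without its replicate 1 to −0.08 without its replicate 2. At an unadjusted p below 0.05, 1 gene was lower in siWdr5 and none in siBrca1 or siBard1, and limma-voom called none in any. The shares of all genes at these settings are not given here. In siWdr5 53 of the 55 genes had a log2-fold change below 0, as had 6118 of all 14028, and the 55 ranged from −0.78 to 0.78. *Hist1h1c* was the closest to the threshold among the 10 genes chosen as most expressed, with 1064 and 889 CPM in the nt control and 774 and 475 CPM in siWdr5 (−0.68, SE 0.32, limma, adjusted p = 0.145). *Hist1h4a* stood at 496 and 328 CPM in the nt control and 310 and 188 CPM in siWdr5 (−0.74, SE 0.43, adjusted p = 0.229). The SE of the 55 genes had a median of 0.38 at day 6 and 0.30 at day 3, against 0.17 and 0.15 over all genes, so that a smaller difference is less detectable in these genes than in most. Without siWdr5 replicate 1, 1 gene passed in siWdr5. The median of the 55 genes was above 0 under some of the omissions of a library in siBrca1 (highest 0.30) and in siBard1 (highest 0.18).

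In the nt control 3 of the 55 genes passed from day 3 to day 6. *Hist1h1b* fell and *Hist1h1c* and *Hist2h2ab* rose, where 27.1% of all genes were lower and 19.0% higher. The median change over the 55 genes was 0.21, and its direction rested on the libraries, at −0.10 without replicate 1 of day 6 and 0.49 without replicate 2 of day 6. Without nt control replicate 2 of day 3, 1 gene passed. *Hist1h1b* fell from 328 and 309 CPM to 172 and 161 CPM (−0.93, SE 0.28, limma, adjusted p = 0.0126). *Hist1h1c* rose from 514 and 486 CPM to 1064 and 889 CPM (0.96, SE 0.28, adjusted p = 0.00947). Neither gene's libraries of the 2 days overlapped, and the ratio of *Hist1h1c* to *Hist1h1b* CPM went from 1.57 and 1.58 to 6.17 and 5.51. The same ratio was 1.46 to 3.00 in the knockdown libraries of day 3 and 3.88 to 7.46 in those of day 6, so it was higher at day 6 in every group. *Hist2h2ab* rose from 1.72 and 1.45 CPM to 5.49 and 3.80 CPM (1.54, SE 0.46, adjusted p = 0.0129). Exons of *Hist2h2ab* are overlapped over 68.2% of their length by *Gm15444* on the other strand.

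Within siBrca1, 49 of the 55 genes rose from day 3 to day 6, where 20.5% of all genes were higher, with a median change of 1.43. The largest rises by type were in H2A (12 of 13 genes passed, median 1.59) and H4 (12 of 12, median 1.54), and the smallest in H1 (4 of 5, median 0.82), of which *Hist1h1b* did not pass (0.29). Without siBrca1 replicate 2 of day 3, 13 genes passed (median 0.75), and without siBrca1 replicate 1 of day 6, 14 (median 0.79). Within siWdr5 10 genes rose, where 14.9% of all genes were higher, with a median of 0.84. The count was 2 without either siWdr5 library of day 3, 0 without replicate 1 of day 6 (median 0.44) and 18 without replicate 2 of day 6 (median 1.21). Within siBard1 11 genes rose, where 17.0% of all genes were higher, with a median of 0.80, and 1 gene passed without siBard1 replicate 2 of day 3 or replicate 1 of day 6 (lowest median 0.53). The shares that passed in siWdr5 and siBard1 were near those of all genes, but the medians over all genes were 0.02 and −0.02. In siWdr5 both day 6 libraries lay above both day 3 libraries in 49 of the 55 genes, as in 4970 of all 14028. In siBard1 they did so in 40 of the 55, as in 4678 of all 14028.

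**Figure D4:**
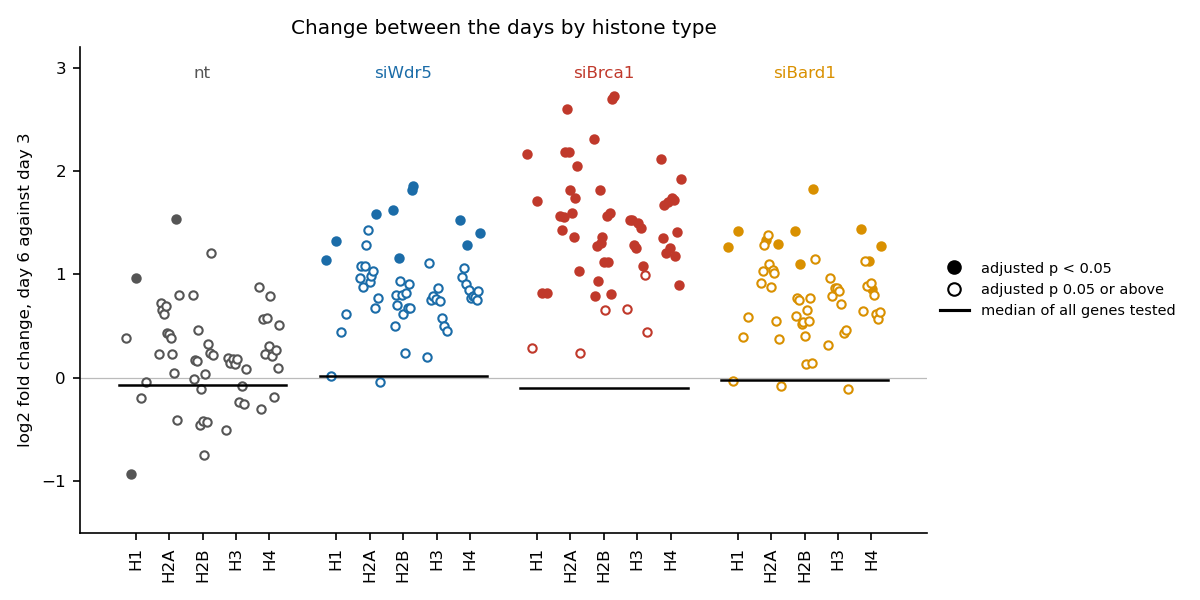
Log2-fold change from day 3 to day 6 of each of the 55 clustered histone genes, on the vertical axis, by histone type, within the nt control, siWdr5, siBrca1 and siBard1. The medians are 0.21, 0.84, 1.43 and 0.80, and *Hist1h1b* (−0.93) and *Hist1h1c* (0.96) move apart in the nt control.

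Whether a knockdown effect differed between the days was tested as an interaction, the day 6 change against the nt control minus the day 3 change. In siBrca1, 6 genes had a higher value at day 6, where 10.3% of all genes did: *Hist3h2bb-ps* (2.51), *Hist1h1a* (1.78), *Hist1h2bh* (1.76), *Hist1h2bn* (1.55), *Hist2h2ac* (1.44) and *Hist1h1b* (1.22). Their share, 6 of 55, is close to that of all genes, although the median interaction over the 55 was 1.25, against 0.01 over all genes. That median was 0.62 without siBrca1 replicate 2 of day 3 and 1.88 without its replicate 1. The count was 41 without siBrca1 replicate 1 of day 3 and 44 without siBrca1 replicate 2 of day 6. It was 0 without nt control replicate 1 of day 3, siBrca1 replicate 2 of day 3, nt control replicate 2 of day 6 or siBrca1 replicate 1 of day 6, and 3 without nt control replicate 2 of day 3. No gene passed in siWdr5 (median 0.66, 0.31 to 1.09 with a library left out), where 3.4% of all genes were higher. No gene passed in siBard1 either (median 0.64, 0.36 to 0.95 with a library left out), where 0.0214% of all genes were higher. At an unadjusted p below 0.05, 5 genes passed in siWdr5 and 2 in siBard1, and 0 in each by limma-voom. The shares of all genes at these settings are not given here, and 3.4% and 0.0214% belong to the adjusted limma test.

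Genes of S phase moved with the histone genes at day 3. Of 24 genes for DNA replication, nucleotide supply and the cell cycle, 20 fell in siWdr5 (median −0.74), 23 in siBrca1 (−1.21) and 6 in siBard1 (−0.38), and none rose, where 16.8%, 21.8% and 5.87% of all genes fell. *Pcna*, the sliding clamp of DNA polymerases, went from 155 and 144 CPM to 80.9 and 92.9 with siWdr5, 79.4 and 40.9 with siBrca1 and 114 and 105 with siBard1. Its log2-fold changes were −0.78, −1.39 and −0.45 (limma, adjusted p = 0.011, 0.00015 and 0.16). *Mcm7*, a subunit of the replicative helicase, went from 202 and 207 CPM to 111 and 54.7 in siBrca1. As with the histone genes, siBrca1 replicate 2 was the lowest library, at a list median of −1.64 from the nt mean, against −0.88 in replicate 1. From day 3 to day 6 in the nt control 15 of the 24 S phase genes fell and 1 rose (median −0.66), and *Mki67*, a marker of cycling cells, was among those that fell (−1.57). The histone median of 0.21 in the same comparison was −0.10 without replicate 1 of day 6. The S phase medians of all 8 libraries of day 6 lay between −0.66 and −0.48, without the gap between replicates seen in the histone genes. In siBrca1 22 of the 24 had a higher interaction value. The part of S phase genes in the histone results was not tested.

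At day 3 smaller shares passed among factors that act on histone mRNA and protein than among the histone and S phase genes. Of all genes 16.8% fell in siWdr5, 21.8% in siBrca1 and 5.87% in siBard1. In the nt control course 27.1% of all genes fell and 19.0% rose. Of 18 genes for histone transcription and 3′ end processing, 5 fell and 1 rose in siWdr5 (median −0.17), 8 fell and 1 rose in siBrca1 (−0.34) and 2 fell in siBard1 (−0.17), and in the nt control 10 fell and 1 rose by day 6. *Cpsf2*, a subunit of the cleavage complex, had log2-fold changes of −0.47, −0.62 and −0.19 (limma, adjusted p = 0.0078, 0.00076 and 0.29). Of 16 histone chaperones, 7 fell in siWdr5 (median −0.25), 10 in siBrca1 (−0.39) and 3 in siBard1 (−0.21), and none rose, while in the nt control course 8 fell and 3 rose. *Nasp*, the chaperone that binds the H3 and H4 reserve, went from 143 and 138 CPM to 64.4 and 80.8 in siWdr5 (−0.96, adjusted p = 0.0013) and to 63.7 and 38.5 in siBrca1 (−1.501, adjusted p = 2.9e-05).

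Some of the histone variant genes outside the clusters fell at day 3. Of 11, 4 fell in siWdr5 (median −0.40), 5 in siBrca1 (−0.41) and 2 in siBard1 (−0.42), and none rose. Among all genes 16.8%, 21.8% and 5.87% fell. *H2afz*, which encodes H2A.Z, went from 168 and 141 CPM to 73.0 and 74.4 in siWdr5, 80.2 and 53.1 in siBrca1 and 103 and 79.4 in siBard1. It fell in all 3 (−1.06, −1.24 and −0.77, limma, adjusted p = 0.00046, 8.2e-05 and 0.011) and rose in the nt control from day 3 to day 6 (1.07, adjusted p = 0.0033). *H3f3b*, for H3.3, stood at 161 and 174 CPM in the nt control, 176 and 194 in siWdr5, 158 and 153 in siBrca1 and 168 and 167 in siBard1, and did not pass in any. In the nt control course 2 of the 11 fell and 4 rose.

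Other RNAs without a poly(A) tail, such as 7SK, telomerase RNA and small Cajal body RNAs, showed how such transcripts behaved in these libraries. Of 35 tested, 7 fell and 2 rose in siWdr5 (median −0.35), 9 fell and 3 rose in siBrca1 (−0.30), and 2 fell and 2 rose in siBard1 (−0.34). As 16.8%, 21.8% and 5.87% of all genes fell, these shares are near those of all genes. *Rn7sk*, the 7SK RNA, stood at 7853 and 5870 CPM in the nt control of day 3 and at 4353 to 7386 CPM in the knockdowns. From day 3 to day 6 in the nt control 21 of the 35 rose (median 1.25) and none fell. At day 6 replicate 1 lay above replicate 2 in each group, with list medians of 1.46 and 0.97 in the nt control, 0.84 and 0.41 in siWdr5, 1.65 and 0.70 in siBrca1 and 1.26 and 0.34 in siBard1. The histone genes showed the same order of replicates. The part of the recovery of RNAs without poly(A) in the histone values was not tested.

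**Figure D5:**
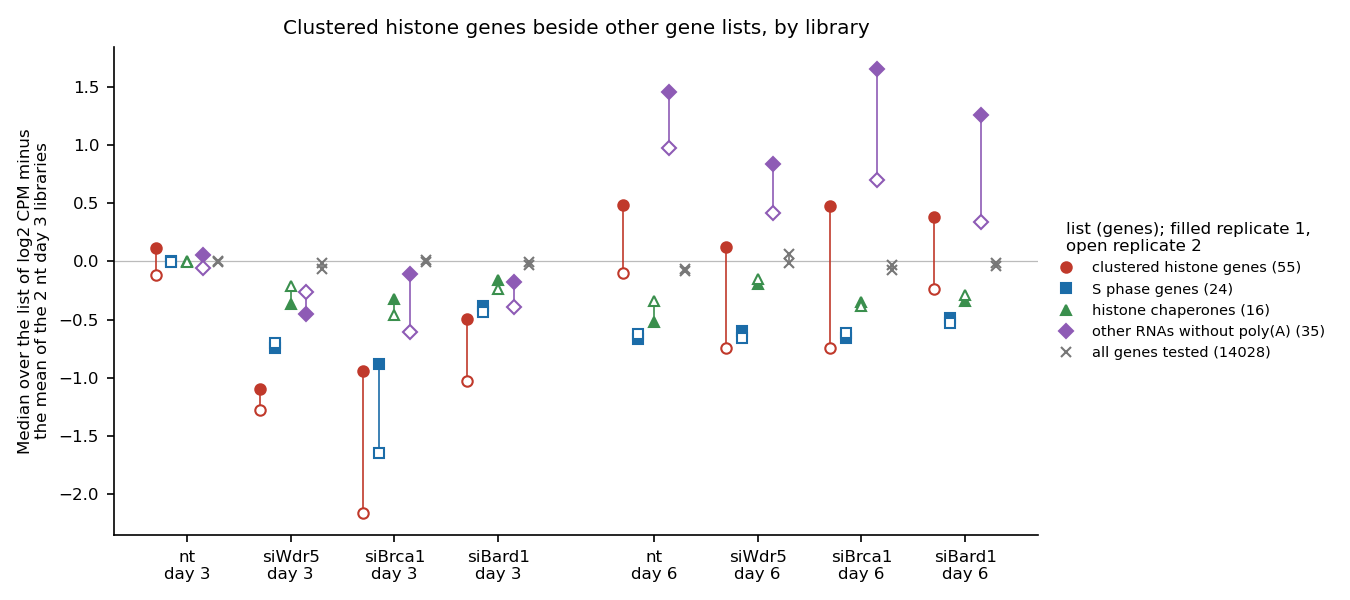
Median log2 difference from the nt control mean of day 3, on the vertical axis, over the clustered histone genes (55), S phase genes (24), histone chaperones (16), other RNAs without poly(A) (35) and all genes tested, in each of the 16 libraries. At day 3 the histone and S phase medians are lowest in siBrca1 replicate 2 (−2.16 and −1.64), and at day 6 the histone genes and the other RNAs without poly(A) share the gap between replicates.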

How the data were processed

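The deposited table holds log2 CPM of 18990 genes in 16 libraries. The authors depleted ribosomal RNA (200 ng total RNA, Kapa RNA HyperPrep with RiboErase), sequenced paired ends of 43 bases, aligned the reads to mm10 with STAR 2.5.2b and computed the deposited log2 CPM with edgeR 3.20.9. The counter, its annotation and its use of strand are not given in the sources used here. Every deposited value stepped in whole reads (100% of values within 0.1 reads), which gave 11169738 to 26832534 reads per library and 3 reads at 0.115 to 0.260 CPM. CPM values were taken back from the log2 scale and keep the authors' offset of 1.57 to 3.57 reads. All 16 columns were used (columns left out: 0).

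Genes whose log2 CPM averaged 0 or more were tested with limma 3.58.1 in R 4.3.3, with a trend on mean expression and Benjamini-Hochberg adjustment over 14028 genes, two-sided, at an adjusted p of 0.05. Comparisons within a day used its 8 libraries, and courses and interactions all 16. SE is that of the log2-fold change. Tables were handled with Python 3.11.15 and pandas 2.3.3. The fits were tested on simulated data.

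Each member could be named. Genes chosen for single values were the 2 members of each type with the highest mean and the members of clusters 2 to 4. The 3 largest changes among those that passed in each day 3 knockdown and in the nt control course were added. From each list at most 5 genes of the highest mean could be named. Library values are given for the comparisons described, mostly at day 3, and some genes, such as *Hist2h4* and *Hist2h2ac*, have log2-fold changes only. The lists are histone variants, histone transcription and 3′ processing, chaperones, S phase genes, other RNAs without poly(A), and markers of fibroblasts, pluripotent, epithelial, endothelial and muscle cells and macrophages. The members and lists were chosen with earlier results of these data known.

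Transcripts and genes come from GENCODE vM21 and promoters from RefSeq (GRCm38.p6), where 49 of 55 members matched. Alternatives were other filters (none, or a mean of at least 2), no trend, 1 CPM added before the log, median centring, quantile normalization, fits of 4 or 16 libraries, a log2-fold change of 1 as a threshold, limma-voom on the recovered reads, the replicate number as a block, and leaving out each library.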

Additional observations from a re-analysis of the deposited data

Results flagged for a closer look

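In 6 histone genes the siBrca1 effect differed between day 3 and day 6 by the interaction test (limma over all 16 libraries, adjusted p 0.0165 to 0.0395). The day 6 log2-fold change exceeded that of day 3 by 2.51 in *Hist3h2bb-ps*, 1.78 in *Hist1h1a*, 1.76 in *Hist1h2bh*, 1.55 in *Hist1h2bn*, 1.44 in *Hist2h2ac* and 1.22 in *Hist1h1b*. *Hist1h2bh* stood at 110 and 100 CPM in the nt control and 52.4 and 18.8 CPM in siBrca1 at day 3, and at 89.2 and 65.6 CPM and 114 and 52.5 CPM at day 6. *Hist1h2bn* stood at 110 and 102 CPM against 51.0 and 24.7 CPM at day 3, and at 87.0 and 71.2 CPM against 105 and 56.7 CPM at day 6. The share of all genes with a higher value at day 6 was 10.3%, close to 6 of 55. The count was 0 without nt control replicate 1 or siBrca1 replicate 2 of day 3, or nt control replicate 2 or siBrca1 replicate 1 of day 6. It was 3 without nt control replicate 2 of day 3, 41 without siBrca1 replicate 1 of day 3 and 44 without siBrca1 replicate 2 of day 6.

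At day 3 the effects of siBrca1 and siBard1 differed in 18 histone genes, all lower in siBrca1. The call rested on single libraries, with 52 genes without siBrca1 replicate 1 and 0 without any other of the 4 libraries.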

How the results depend on the processing

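Counts are of histone genes that passed among 55 unless said otherwise. Shares of all genes under these alternatives, the replicate block below among them, are not given, so the counts have no background. In siBrca1 at day 3 every alternative kept the count within 1.5 times, as in siBrca1 and siBard1 at day 6, in the siBrca1 course apart from left-out libraries, and in the siBard1 interaction. In siWdr5 at day 3 the count of 50 became 30 with no filter and 20 with no trend. In siBard1 at day 3 the count of 11 became 0 with no filter, no trend, all 16 libraries or a log2-fold change of 1 as threshold, 4 with median centring, 25 with limma-voom and 51 (50 lower, 1 higher) in a fit of 4 libraries. For siBrca1 against siBard1 the 18 became 0 with no filter, no trend or 4 libraries, 1 with 16 libraries, 5 with the fold threshold, 10 with median centring and 11 with quantile normalization, and for siWdr5 against siBard1 the 0 became 1 with no trend or limma-voom and 39 with 4 libraries. In siWdr5 at day 6 the fit of 4 libraries called 4. In the nt control course the 3 became 5 with a pseudocount of 1 CPM, median centring or quantile normalization, 1 with the fold threshold and 20 with 4 libraries, the siWdr5 course 49 and the siBard1 course 40 with 4 libraries, the siBard1 course 4 with no trend, and the siBrca1 interaction 0 with no trend. The causes were not tested. Leaving out 1 library, where a lone library is assumed to vary like the other groups, gave 15 to 46 in siWdr5 at day 3, 50 to 52 in siBrca1, 0 to 2 in siBard1, 0 to 1 in siWdr5 at day 6, 1 to 2 in the nt control course, 0 to 18 in siWdr5, 13 to 53 in siBrca1 and 1 to 11 in siBard1 courses, 0 to 44 in the siBrca1 interaction, 0 to 48 for siBrca1 against siWdr5 and 0 to 52 for siBrca1 against siBard1.

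Groups share replicate numbers. The paper places replicates in independent experiments, but the sources do not say that a number marks a shared experiment or batch across groups. For each group the replicate 1 minus replicate 2 difference in log2 CPM was taken per gene and correlated across genes between pairs of groups. Over all genes r was −0.09 to 0.07 within day 3, −0.07 to 0.26 within day 6 and −0.08 to 0.37 across days. Over the 55 histone genes the values were −0.02 to 0.57, 0.46 to 0.80 and 0.25 to 0.62. As not every pair of groups correlated over all genes and a group has 2 libraries, the numbers were not taken to pair the samples. The histone genes nevertheless deviated together by number within day 6 and across days, with replicate 1 the higher in every group. The main fit holds no term for this. With the replicate number as a block (replicate block), 46 genes passed in siBard1 and 47 for siBrca1 against siBard1 at day 3, 28 in siWdr5 at day 6, 14, 45 and 40 in the nt control, siWdr5 and siBard1 courses, 5 and 48 in the siWdr5 and siBrca1 interactions, 2 for siBrca1 against siWdr5 and 5 for siWdr5 against siBard1. For single named genes, 471 of 554 alternative values kept their direction and side of the threshold, 70 lost and 13 gained the threshold, and 0 reversed. Depth limits genes such as *Hist3h2ba*, with 2 to 61 reads.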
